A study of Monodelphis domestica with 7 samples.

Results

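A set of 24 genes was described that were close to silent in the uninjured spinal cord of the gray short-tailed opossum (*Monodelphis domestica*) at P8 and were expressed at P29. Members were chosen by their CPM, the count scaled to library size so that the CPM of a library add up to 1000000. It had to be below 1 in both P8 control libraries and 12 or more in the P29 control library. Of 21314 genes in the count table, 25 met these limits and 1 of them was left out of the set by the rule, which leaves the 24. The limits were set on the control libraries alone, so the difference between P8 and P29 controls is given here only as a description, and the tests below use only the 4 libraries from injured cords, apart from alternative fits named as holding all 7 libraries.

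The opossum is a marsupial whose pups are born at an early stage and complete much of the development of the spinal cord after birth. Rostral cord was taken 24 h after complete transection at thoracic level T10 on P7 or P28 or from the same segment of uninjured cords in pups of both sexes, and each library held RNA pooled from 2 individuals. There were 2 libraries of P8 controls, 2 of P7+24h injured cords, 1 of P29 controls and 2 of P28+24h injured cords. P8 controls came from separate litters, whereas P28 controls were usually uninjured littermates that had been anaesthetised. The libraries labelled run 1 and run 2 were sequenced in separate runs from separately collected samples, and the only P29 control belongs to run 1.

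Between the first and the fourth week the opossum cord passes from the growth of its tracts into a period of glial and neuronal maturation. Oligodendrocytes, the glia that wrap axons, differentiate late and switch on genes for myelin proteins and for the synthesis of myelin lipids that their precursors hardly use. Neurons form synapses and lay down an extracellular matrix over the same weeks. In bulk RNA, more cells of a type and more RNA per cell cannot be told apart.

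Identifiers and symbols could be paired through the supplementary tables of the study for only 3 of the 24 members. These are *Cndp1* (ENSMODG00000012366), carnosine dipeptidase 1, a secreted enzyme that cleaves the dipeptide carnosine; *Ghsr* (ENSMODG00000021322), the growth hormone secretagogue receptor to which ghrelin binds; and *Sec14l3* (ENSMODG00000009445), a member of a family of lipid-binding proteins. Those tables list genes or proteins with a change after injury, so the 3 were not named independently of the injury. The other 21 members are given by their Ensembl identifiers, and nothing is said of their function.

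Library totals ranged from 3332232 to 6256074 counts, and 3 counts, taken as the floor, corresponded to 0.480 to 0.900 CPM depending on the library. Below 1 CPM a member therefore had at most 5 counts in a P8 control. Throughout, the value of run 1 is given before that of run 2. Added over the 24 members, the level was 6.97 and 10.3 CPM for P8 controls, and after injury at P7 it was 13.004 and 15.5 CPM. It reached 1587 CPM for the P29 control, with 1163 and 1237 CPM after injury at P28. In this sum the injured libraries lay with the controls of their age.

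**Figure D1:**
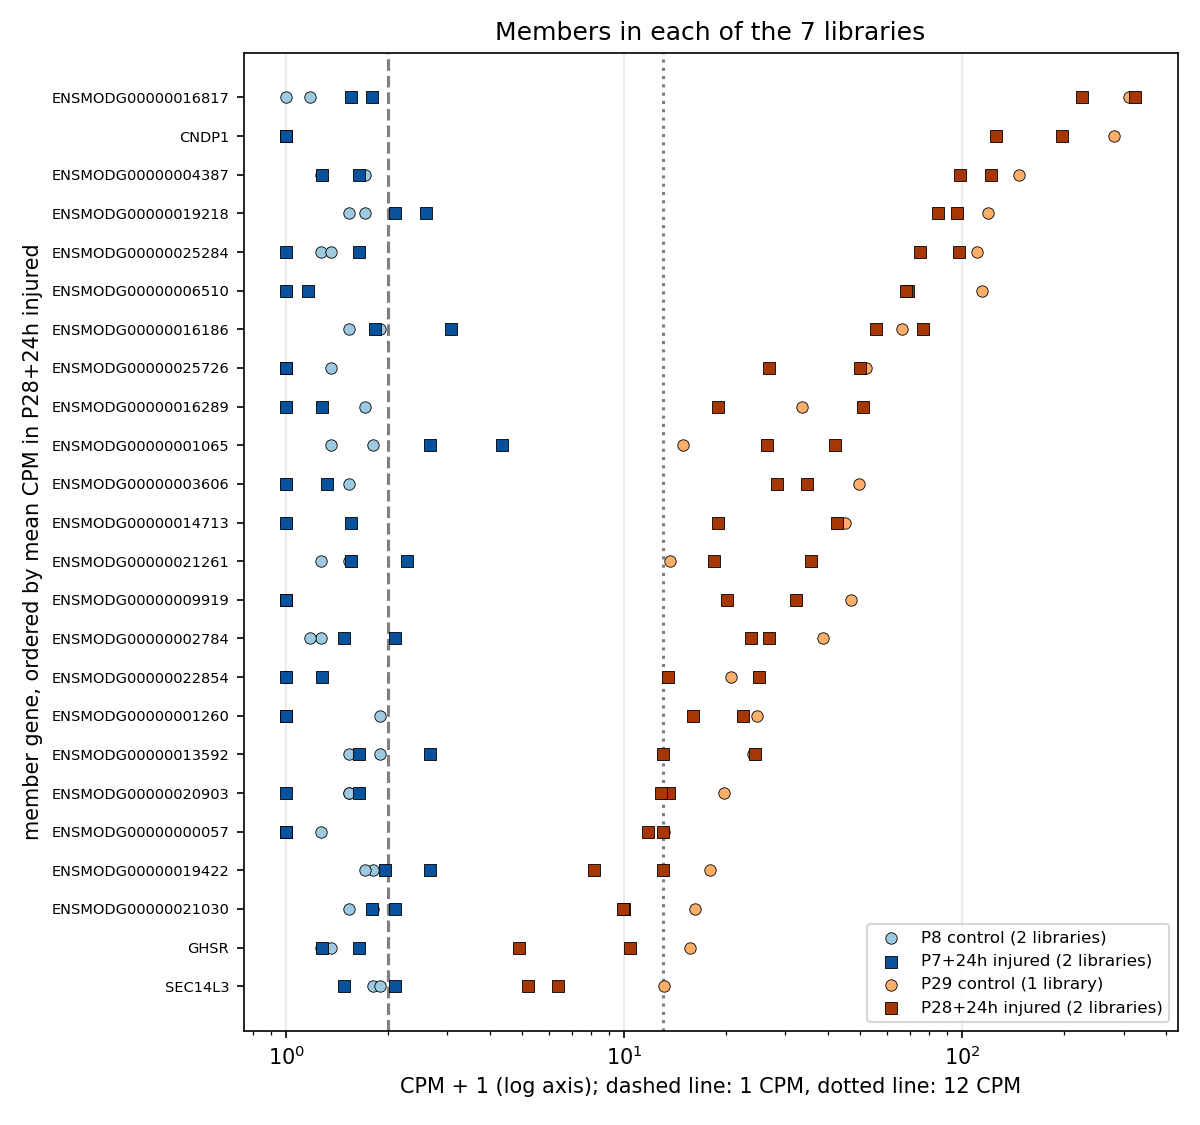
CPM plus 1 (log axis) of the 24 members in each of the 7 libraries, in the order of their mean CPM in the P28+24h injured cords. Circles stand for control and squares for injured libraries, blue for those collected at P8 and orange to brown for those collected at P29. In every member the P28+24h injured libraries lie to the right of the P7+24h injured ones.

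The 6 leading members held 69.3% and 62.0% of the summed CPM of all members in runs 1 and 2 of the P28+24h injured cords. ENSMODG00000016817 had 0 and 1 counts for P8 controls, 2 and 5 after injury at P7, 1228 for the P29 control, then 1078 and 1385 after injury at P28. *Cndp1* had 0 counts in each of the 4 libraries collected at P8, 1111 for the P29 control, then 415 and 1208 after injury at P28 (mean 161 CPM ± 50.9, SD, n = 2). ENSMODG00000004387 had 1 and 4 counts for P8 controls, 1 and 4 after injury at P7, 579 for the P29 control, then 403 and 601 after injury at P28. None of these genes overlapped between the ages, and *Cndp1* was not detected in the younger cord at this depth.

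ENSMODG00000019218 had 2 and 4 counts for P8 controls, 4 and 10 after injury at P7, 468 for the P29 control, then 319 and 514 after injury at P28. ENSMODG00000025284 had 1 and 2, then 0 and 4 in the same P8 and P7+24h libraries, 432 for the P29 control, then 246 and 595 after injury at P28. ENSMODG00000006510 had 0 counts in both P8 controls, 0 and 1 after injury at P7, 449 for the P29 control, then 227 and 412 after injury at P28. The last of these was the most even member between the runs among the 6, with 68.1 and 67.0 CPM after injury at P28.

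A middle group of 9 members had mean levels between 24.3 and 65.1 CPM after injury at P28. ENSMODG00000016186 had 2 and 5 counts for P8 controls, 3 and 13 after injury at P7, 258 for the P29 control, then 182 and 465 after injury at P28. ENSMODG00000025726 had 0 and 2 for P8 controls, 0 and 0 after injury at P7, 201 for the P29 control, then 86 and 301 after injury at P28. ENSMODG00000016289 had 0 and 4 for P8 controls, 1 and 0 after injury at P7, 129 for the P29 control, then 60 and 306 after injury at P28. The last of these had the widest spread of any member between the P28+24h libraries, 2.76-fold in CPM (18.0 and 49.8).

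ENSMODG00000003606 had 0 and 3 counts for P8 controls, 0 and 2 after injury at P7, 192 for the P29 control, then 91 and 208 after injury at P28. ENSMODG00000014713 had 0 and 0 for P8 controls, 2 and 0 after injury at P7, 174 for the P29 control, then 60 and 255 after injury at P28. ENSMODG00000009919 had 0 counts in all 4 libraries collected at P8, 181 for the P29 control, then 104 and 118 after injury at P28. With *Cndp1* it was 1 of 2 members without a single count at P8. ENSMODG00000002784 had 1 and 1 for P8 controls, 4 and 3 after injury at P7, 149 for the P29 control, then 76 and 159 after injury at P28. In all 4 the lowest P28+24h count was over 10 times the highest count at P8.

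Another pair of this middle group stood above its control after injury at both ages. ENSMODG00000001065 had 3 and 2 counts for P8 controls, 6 and 21 after injury at P7, 55 for the P29 control, then 85 and 253 after injury at P28. In CPM these were 0.805 and 0.356, 1.66 and 3.36, 13.9, and 25.5 and 41.2. ENSMODG00000021261 had 1 and 3 counts for P8 controls, 2 and 8 after injury at P7, 50 for the P29 control, then 58 and 214 after injury at P28. In both genes the injured and control libraries did not overlap at either age, with a single control at P29. For ENSMODG00000021261 the nearest values at P8 were 0.535 CPM in a control and 0.553 CPM after injury, from 3 and 2 counts. Both P7+24h libraries were above both P8 controls in 6 of the 24 members and in 6.38% of all genes, a share lowered by genes without counts. Only these 2 members were above the P29 control in both P28+24h libraries, and that share over all genes was not worked out. Of the 8401 other genes at 12 CPM or more in that control, 57.4% were lower in run 1 and 44.6% in run 2. The pair stood near the limit of 12 CPM in the P29 control, at 13.9 and 12.6 CPM. A higher level in other libraries is therefore partly set by the choice.

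The remaining 9 members had mean levels of at most 18.3 CPM after injury at P28. ENSMODG00000022854 had 0 and 0 counts for P8 controls, 1 and 0 after injury at P7, 78 for the P29 control, then 80 and 77 after injury at P28. ENSMODG00000001260 had 0 and 5, then 0 and 0, then 94, and 50 and 132 in the same order of libraries. ENSMODG00000013592 had 2 and 5, then 6 and 4, then 91, and 78 and 74. In CPM, ENSMODG00000022854 and ENSMODG00000013592 were lower in run 2 than in run 1 of the P28+24h injured cords and ENSMODG00000001260 was higher.

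ENSMODG00000020903 had 2 and 3 counts for P8 controls, 0 and 4 after injury at P7, 74 for the P29 control, then 42 and 73 after injury at P28. ENSMODG00000000057 had 1 and 0, then 0 and 0, then 48, and 40 and 66 in that order. ENSMODG00000019422 had 3 and 4, then 6 and 6, then 67, and 40 and 44. These members stood at 18.7, 12.1 and 16.9 CPM in the P29 control, and at 7.16 to 12.6 CPM after injury at P28.

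ENSMODG00000021030 had 3 and 3 counts for P8 controls, 4 and 5 after injury at P7, 60 for the P29 control, then 30 and 55 after injury at P28. *Ghsr* had 1 and 2 counts for P8 controls, 1 and 4 after injury at P7, 58 for the P29 control, then 13 and 58 after injury at P28. *Sec14l3* had 3 and 5 counts for P8 controls, 4 and 3 after injury at P7, 48 for the P29 control, then 14 and 33 after injury at P28. *Ghsr* and *Sec14l3* had the lowest mean CPM of the 24 after injury at P28, at 3.90 and 9.43 CPM and at 4.20 and 5.37 CPM. In run 2 alone, ENSMODG00000019422 (7.16 CPM) and ENSMODG00000021030 (8.95 CPM) were below *Ghsr*.

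How sharply the limits cut can be seen from the genes beside them. Just inside the P29 limit were ENSMODG00000000057 and *Sec14l3*, both at 12.1 CPM, and ENSMODG00000021261 at 12.6 CPM. Just outside it were ENSMODG00000006210 at 11.9 CPM and ENSMODG00000024105 and ENSMODG00000028822, both at 11.4 CPM. Under the P8 limit, 4 members tied, and ENSMODG00000001260, *Sec14l3*, ENSMODG00000016186 and ENSMODG00000013592 had 0.891 CPM in the run 2 control. Just over it were ENSMODG00000005977 and *Kcnj12* (ENSMODG00000001377), an inwardly rectifying potassium channel, both at 1.07 CPM in the run 2 control, and ENSMODG00000019585 at 1.07 CPM in the run 1 control. These genes had 5 counts inside and 4 to 6 outside the limit in the library that decided it, a difference within counting error. *Nipal4* (ENSMODG00000008399), a magnesium transporter on a list of oligodendrocyte genes, also had 0 and 2 counts at P8 but stayed outside the set with 10.9 CPM in the P29 control.

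The question whether the genes also separate the ages in cords the rule did not use was addressed by comparing the P28+24h with the P7+24h injured libraries. These groups differ in age at injury and at collection together, and both had been transected. All 24 members were higher in both P28+24h libraries than in both P7+24h libraries, and the smallest ratio of the lowest P28+24h to the highest P7+24h CPM was 3.80. Among the 13100 genes tested, 19.9% had no overlap in this direction. A rise of 16-fold or more in CPM plus 1 in both runs was seen in 11 of the 24 and in 0.305% of the genes tested. Of the 100 genes with the largest fitted rise, 19 were members.

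In edgeR's quasi-likelihood test on these 4 libraries, 11 of the 24 members were called higher at P28+24h (Benjamini-Hochberg adjusted p under 0.05, fold of 2 or more), against 0.511% of all genes tested (67 genes, 11 of them members). No member and no other gene was called lower, although 2172 genes had an unadjusted p under 0.05, counting higher and lower ones. The 11 had adjusted p-values of 0.0384 to 0.0487 and the other 13 of 0.0554 to 0.124, and all 24 had an unadjusted p under 0.05. With the sequencing run as a block, which leaves 1 residual degree of freedom, all 24 were called higher, with a largest adjusted p of 3.46e-06, as were 14.1% of the genes tested, while 9.23% were called lower. The exact test of edgeR called all 24 higher and DESeq2 23, beside 5.48% and 3.75% of the genes tested. Leaving out any 1 of the 4 libraries gave 19 to 20 members, among 179 to 253 genes called in all. All 24 members passed the filter on low counts, which asks for a minimum level in 2 libraries. In 21 of them both P7+24h counts were under 10, and the others reached 10 in run 2 alone. None could pass without the P28+24h libraries, so a difference was in part required of all 24.

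**Figure D2:**
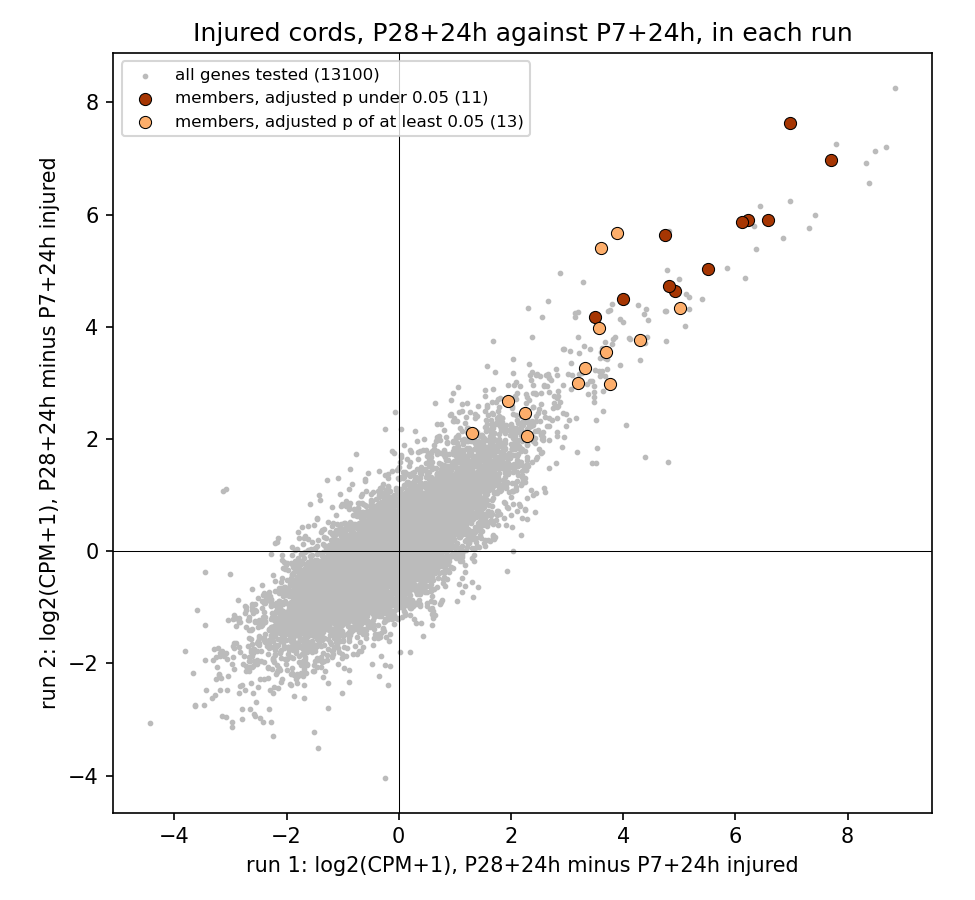
Difference in log2(CPM+1) between P28+24h and P7+24h injured cords in run 1 (x axis) and in run 2 (y axis) for the 13100 genes tested (grey) and the 24 members (brown for the 11 with an adjusted p under 0.05, light orange for the other 13). All members lie in the upper right, between 1.30 and 7.71 in run 1 and between 2.06 and 7.63 in run 2.

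Where all P7+24h counts were 0, the difference could only be bounded. Against the floor of 3 counts per library, *Cndp1* was at least 245-fold higher in the P28+24h injured cords, with 125 and 197 CPM in runs 1 and 2 (adjusted p 0.0384). The same bound was at least 57.1-fold for ENSMODG00000025726 (adjusted p 0.0435), 38.5-fold for ENSMODG00000009919 (0.0570), 27.9-fold for ENSMODG00000001260 (0.0487) and 17.4-fold for ENSMODG00000000057 (0.0579). Of these 5, *Cndp1*, ENSMODG00000025726 and ENSMODG00000001260 were called without the block. The bound depends on the depth of the P7+24h libraries, which sets the floor, and says nothing of a level at P8 below the floor.

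With 1 to 3 counts in the P7+24h libraries together, the ratio of pooled CPM had a wide counting interval (exact Clopper-Pearson, 95%). It was 665 (119 to 26320.1) for ENSMODG00000006510, which had a single P7+24h count and was called. It was 156 (42.7 to 1291) for ENSMODG00000003606, also called. For ENSMODG00000016289, ENSMODG00000014713 and ENSMODG00000022854, which were not called without the block, the ratios were 381 (68.0 to 15093), 164 (45.0 to 1360.1) and 163 (28.9 to 6497). These intervals cover counting error only, and even their lower ends lie at 28.9 or above.

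For the members with more counts the fit gave a usable size. The log2 fold change of P28+24h over P7+24h injured cords was 8.79 for ENSMODG00000016817 (standard error 0.58, adjusted p 0.0384) and 7.93 for ENSMODG00000004387 (standard error 0.58, adjusted p 0.0384). ENSMODG00000025284 rose by 7.88 (standard error 0.80, adjusted p 0.0408), ENSMODG00000019218 by 6.20 (standard error 0.47, adjusted p 0.0384) and ENSMODG00000016186 by 5.57 (standard error 0.55, adjusted p 0.0408). ENSMODG00000002784, the lowest of the called members with such counts, rose by 5.19 (standard error 0.57, adjusted p 0.0435). The median over all 24 members was 7.20 as fitted and 5.42 with the 5 all-zero members at their bound, beside 0.04 over all genes tested.

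Among the members not called without the block, the fitted log2 fold changes with at least 4 P7+24h counts ran from 2.84 to 5.11. *Ghsr* had 3.88 (standard error 0.73, adjusted p 0.103, or 6.24e-10 when the run was a block) and *Sec14l3* 2.84 (standard error 0.63, adjusted p 0.124, and 3.46e-06 with the block). ENSMODG00000001065 had 3.86 (standard error 0.52, adjusted p 0.0600, and 6.2e-27 with the block), the smallest log2 difference among members above 20 CPM in the P28+24h injured cords. The others in this range were ENSMODG00000020903 (5.11), ENSMODG00000021261 (4.89), ENSMODG00000013592 (4.23), ENSMODG00000021030 (3.43) and ENSMODG00000019422 (3.11).

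When the limits of the rule were applied to the injured libraries, 12 of the 24 members met them, with a CPM below 1 in both P7+24h and of 12 or more in both P28+24h libraries. Among all genes counted, 14 did, which is 0.0657% of 21314. The 12 are 50% of the members and 85.7% of the 14. Of the other 2 genes, 1 was the gene the rule leaves out and 1 was ENSMODG00000019585, with 1.07 CPM in a P8 control. Taken separately, 15 members stayed below 1 CPM in both P7+24h libraries and 18 reached 12 CPM in both P28+24h libraries. Of the other genes at 12 CPM or more in the P29 control, 91.1% did the latter.

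The 9 members at 1 CPM or more in a P7+24h injured library were ENSMODG00000019218 and ENSMODG00000001065, in both runs, and 7 others in 1 run. The highest of all was ENSMODG00000001065, at 3.36 CPM in run 2. Of the 7285 other genes under 1 CPM in both P8 controls, 95.9% were also under it in both P7+24h injured libraries, a group that includes genes without counts. In 6 of the 24 members both P7+24h libraries were above both P8 controls, against 6.38% of all genes. Only 17045 of the 21314 genes had a count in an injured library, and the rest could not meet this. The share over all genes is lowered by them and is no like background for the members. Without ENSMODG00000001065 the summed CPM of the members was 6.17 and 9.98 for P8 controls, with 11.3 and 12.1 after injury at P7. Because the rule kept only genes that were low in these very controls, a higher level elsewhere is partly set by the choice.

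At P29 the members were compared side by side with their control, without a test, since the rule required a high level in that 1 library. In the injured library of run 1, the run of the control, 19 of the 24 were lower, and in that of run 2, 20 were, beside 57.4% and 44.6% of the 8401 other genes at 12 CPM or more in the P29 control. Both injured libraries were below the control for 17 members (70.8%). Of those other genes, 20% were lower in both. The median difference in log2(CPM+1) was -0.55 in run 1 and -0.51 in run 2 for the members, beside -0.09 and 0.07 for those other genes. As a share of the control, the members had a median of 67.5% in run 1 and 69.8% in run 2.

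**Figure D3:**
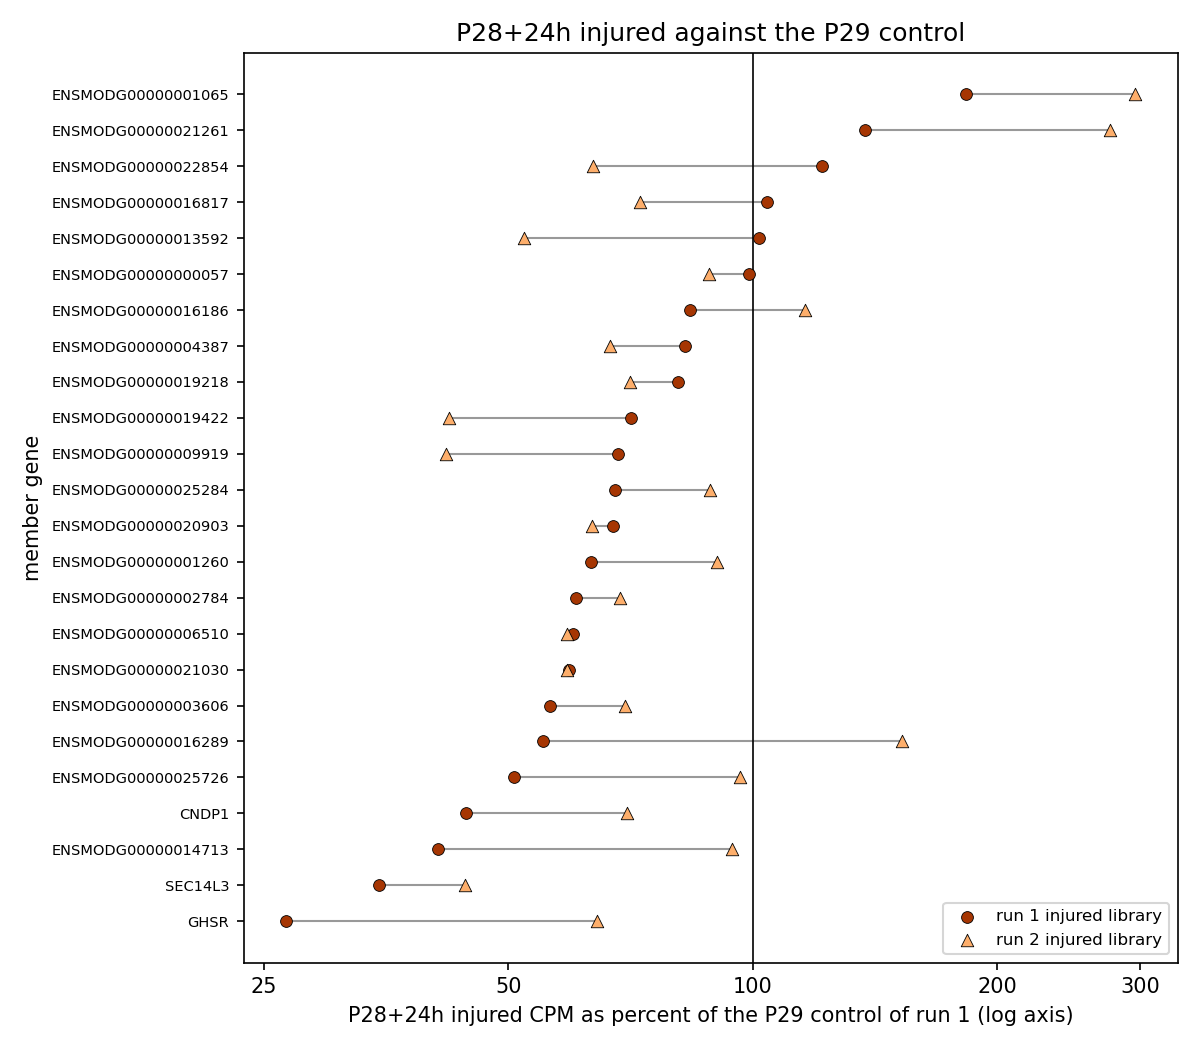
CPM of each member in the P28+24h injured libraries as a percentage of its CPM in the P29 control of run 1 (log axis), with circles for run 1 and triangles for run 2 joined by a line, ordered by run 1. The vertical line marks the control level of 100%. ENSMODG00000001065 and ENSMODG00000021261 lie right of it in both runs and 17 members left of it in both.

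The lowest shares of the control in the injured library of its own run were 26.6% for *Ghsr*, 34.6% for *Sec14l3* and 40.9% for ENSMODG00000014713. In the run 2 injured library these genes stood at 64.3%, 44.2% and 94.3%. *Cndp1*, which breaks down carnosine, went from 281 CPM in the control to 125 in run 1 (44.3%) and 197 in run 2 (69.9%). The highest shares in run 1 were 183% for ENSMODG00000001065, 138% for ENSMODG00000021261 and 122% for ENSMODG00000022854. In run 2 they stood at 296%, 275% and 63.5%, so that of these 3 the first pair was above the control in both runs.

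Between the P28+24h injured libraries, 13 of 24 members were higher in run 2, beside 57.8% of the 8401 other genes, and 13 lay within 1.5-fold of each other. Their order of level was much alike in the runs (Spearman's rho 0.88 over the 24 members, which share the libraries and their depth). No run 2 control of P29 was analysed here, so run and injury cannot be told apart in the run 2 comparison.

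Genes known to mark cell types, tissues or stages of maturation were taken from 19 lists of symbols. At most 45.8% of a list had an identifier, so no list is described as a whole. Since the identifiers come from tables of genes or proteins changed after injury, the genes at hand were not chosen independently of the injury. None of the 24 members was on a list, but only the 3 with a symbol could have been found on one. The examples below were picked after their values were seen. Myelin basic protein (*Mbp*), a structural protein of the myelin sheath, had 110 and 834 counts after injury at P7 and 37694 and 115984 after injury at P28 (log2 fold change 7.70, standard error 1.01, adjusted p 0.0573, and 3.46e-46 with the block). Ermin (*Ermn*), a cytoskeletal protein of oligodendrocytes, had 0 and 14, then 1064 and 2405 counts (8.28, standard error 1.05, adjusted p 0.0554, and 2.06e-120 with the block). Its fitted difference lay within the range of the leading members, and with 1.07 and 1.60 CPM for P8 controls it lay just outside the set. On the same list, contactin 2 (*Cntn2*), an adhesion molecule of axons and glia, had 51 and 351 counts after injury at P7 and 34 and 350 after injury at P28 (0.07, standard error 0.92, adjusted p 0.977, and 0.953 with the block).

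Levels of genes from some of the 19 lists are given beside those of the members, without a test against the single P29 control. Each sum covers only the genes of a list that had an identifier. As the identifiers come from tables of genes or proteins changed after injury, a difference from the control is partly set by that choice. The summed level of 11 microglia and macrophage genes was 191 CPM in the P29 control and 536 and 416 CPM in the injured cords of runs 1 and 2, and that of 9 skeletal muscle genes 23.0 and then 170 and 79.5 CPM. The 6 erythroid genes had 238 CPM in the control, 509 in run 1 and 178 in run 2, so that the injured libraries lay on either side of it. *Mylpf*, a light chain of fast muscle myosin, stood at 1.77 CPM in the control and 49.8 and 7.32 CPM after injury. The part of these genes in the levels of the members was not tested.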

How the data were processed

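RNA from rostral spinal cord of *Monodelphis domestica* was sequenced as 100 bp single-end reads. After trimming, reads were aligned by the authors with Bowtie2 against Ensembl release 69, and HTSeq (union mode) assigned them to genes. The deposited values are whole-number read counts for 21314 genes and 7 libraries, without scaling. Reads on near-identical genes could fall on either copy, and no use of strand is stated.

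CPM was the count divided by the column total and multiplied by 1000000, and log2(CPM+1) values use a pseudocount of 1. The test was edgeR 4.0.16's quasi-likelihood test (two-sided, TMM factors, filterByExpr with a minimum count of 10, Benjamini-Hochberg adjustment) on the 4 injured libraries, and a gene was called at an adjusted p under 0.05 with 2-fold or more. The exact test of edgeR, which the study used, was an alternative. The replicate number is the sequencing run, whose samples were collected separately. The run changes of the P7+24h and P28+24h libraries correlated at 0.78 across genes, and the run was therefore taken as a pairing in the fit with a block. Without the block, the p-values measure the spread between pools together with that between runs, which differ within each injured group. With the block the common dispersion fell from 0.153 to 0.0225 and 1 residual degree of freedom was left. Those p-values therefore lean on spread estimated across genes. The members and lists were chosen with earlier results of these data known. Values in every library are given for the 15 members with the highest mean CPM in the P28+24h injured libraries, for those at 1 CPM or more in a P7+24h library, for those not called, for the 3 largest rises and falls at P28, and for the 3 members nearest each limit, which together cover all 24. *Mbp*, *Ermn*, *Cntn2* and *Mylpf* were chosen after their values were seen.

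The fit was tested on simulated data without a run effect, so the simulation cannot judge how the fits deal with the run. At a dispersion of 0.15, 97 of 100 simulated 8-fold changes were recovered without the block and 70 with it. Of the 64-fold changes, 100 of 100 were recovered in both. Other factors, filters, pseudocounts, limits and left-out libraries were tried as alternatives. R 4.3.3, DESeq2 1.42.0, Python 3.11.15, numpy 2.4.6, pandas 2.3.3 and scipy 1.17.1 were used.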

Additional observations from a re-analysis of the deposited data

Results flagged for a closer look

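In 3 members both P7+24h injured libraries were above both P8 controls while both P28+24h injured libraries were below the P29 control, so that the injured libraries moved in opposite directions at the 2 ages. The difference itself was not tested. The mean change in log2(CPM+1) at P28+24h was -0.613 for ENSMODG00000002784, -0.400 for ENSMODG00000019218 and -0.801 for ENSMODG00000019422, and at P7+24h it was 0.53, 0.53 and 0.38. Taken apart, 6 of the 24 members showed the first move and 17 the second. For the first the share of all genes, lowered by genes without counts, was 6.38%. For the second it was 20% of the 8401 other genes at 12 CPM or more in the P29 control. The share with both was not worked out. The P7+24h libraries held 3 to 10 counts of these genes and the P8 controls 1 to 4. Since the rule set the controls low at P8 and high at P29, both moves are partly set by the choice. With 1 or 2 libraries a group, outlying libraries could not be looked for.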

How the results depend on the processing

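The 24 members kept a positive fitted log2 change between P7+24h and P28+24h injured cords in all 14 other fits, the smallest being 2.26. How many passed the limits depended on the fit. In place of 11 members and 67 genes in all, there were 21 and 217 without a filter on low counts, 22 and 380 with all 7 libraries in the fit, 24 and 935 in edgeR's exact test and 23 and 652 in DESeq2. With the replicate block there were 24 and 3060. With the block and all 7 libraries, an alternative chosen after seeing the data, there were 24 and 3064. Fits with all 7 libraries hold the control values that chose the members, so they give no independent support. They are still counted among the fits and calls of this paragraph. Leaving out 1 library, where the lone one is assumed to vary like the other group, gave 19 to 20 members and 179 to 253 genes. Scaling by RLE factors or by library size alone, requiring 1 CPM in 2 libraries, thinning to the smallest library and dropping the fold limit gave 8 to 11 members and 50 to 72 genes in all. Of the members' calls under these fits, 107 went past the limits, 5 fell short of them and 224 stayed on their side. The 5 were ENSMODG00000001260 under RLE factors, library size only and thinning, and ENSMODG00000002784 and ENSMODG00000025726 under library size only. The median fitted log2 change of 7.20 was 6.69 after thinning and 6.72 to 7.02 with 1 library left out. For these changes the cause was not tested.

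The rule itself gave 45 genes with a limit of 6 CPM at P29, 13 with 24 CPM, 11 with a limit of 0.5 CPM at P8 and 45 with 2 CPM. It gave 34 genes with either P8 control left out and 32 with TMM-scaled CPM. Of the 12 members that met the limits in the injured cords, 7 did so with a limit of 24 CPM. The median fall from the P29 control kept its direction under TMM factors, a pseudocount of 0.5 or 2 CPM and either injured library alone (-0.55 to -0.46). The P29 control is a single library and could not be left out, and at 3 to 6 counts a gene can fall on either side of the P8 limit by counting error.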
